A study of Mus musculus with 2 samples.

Results

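The nuclear genes for the subunits of oxidative phosphorylation were examined in embryonic mouse hindbrain. Members were the protein-coding genes whose GENCODE symbol begins with Nduf and a subunit letter, Uqcr, Cox4 to Cox8 or Atp5, or is Sdha, Sdhb, Sdhc or Sdhd. The symbols match 86 genes, and 85 of them are among the 21474 protein-coding genes with values in the deposited files. The remaining one, a second identifier under the name Atp5o, is not analysed here. There were 36 members in complex I, 4 in complex II, 8 in complex III, 20 in complex IV and 17 in complex V. Ndufa4 and Ndufa4l2 were counted in complex IV, where the Ndufa4 protein is found. Members lay on 19 chromosomes, and 3 of them, Ndufa1, Ndufb11 and Cox7b, are X-linked.

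The tissue was hindbrain of B6NCrl mice at embryonic day 16.5, with 2 biological replicates of 1 group. Each replicate was a pool of male and female embryos. Replicate 2 came from 37 embryos, while the labels state no number of embryos for replicate 1. The RNA was total RNA over 200 bases, sequenced with spike-ins, which are foreign RNAs added in known amount. The design holds 1 group and so no comparison of conditions, and an exact permutation of 2 libraries cannot go below p = 0.5, so levels are described without tests.

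Oxidative phosphorylation makes most of the ATP of neurons. Complexes I and II pass electrons from NADH and succinate to ubiquinone, complex III passes them on to cytochrome c, and complex IV reduces oxygen. Complexes I, III and IV pump protons across the inner mitochondrial membrane, and complex V, the ATP synthase, uses the gradient. Most subunits are encoded in the nucleus and some core subunits of complexes I, III, IV and V in the mitochondrial genome. Several complex IV subunits exist as a general form and a form restricted to muscle, testis, lung or pericytes.

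Levels below are TPM, a relative abundance scaled to the library total and corrected for effective length, so genes can be compared. The libraries held 41543180 and 41346951 expected counts on genes, and 924614 and 670036 on spike-ins. Neuronal markers were all detected (7 of 7), with medians of 301 and 273 TPM. Hindbrain position genes reached 1 TPM in both libraries for 7 of 8, the exception being En2. Skeletal muscle markers stood apart between the pools. All 10 were over 2-fold higher in replicate 1, with a summed level of 408 TPM against 19.5. Among protein-coding genes averaging at least 1 TPM the share was 1.11%. The muscle list was chosen with earlier results of these data known. Its count was thus partly fixed beforehand and only describes these 10 genes. Heart markers Nppa, Myl7 and Myh6 stayed at or below 1.3 TPM and male germ cell markers at or below 1.18 TPM, with Tnp1 at 0. Of the brown fat markers, Ucp1 had 0.10 and 0.18 TPM and Cidea 3.59 and 6.64. The 5 red blood cell genes summed to 15672 TPM in replicate 1 and 12958 in replicate 2, and the 8 pericyte genes to 224 and 198 TPM.

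Almost all nuclear subunit genes were expressed, most of them strongly. In both replicates 81 of 85 members reached 1 TPM, where 63.5% of all protein-coding genes did. At 100 TPM or more in both were 74 of 85 members, where 7.76% of protein-coding genes were. Together the members took 33968 TPM in replicate 1, which is 3.40% of the total, and 37942 TPM in replicate 2, which is 3.79%. The median member had 328 TPM in replicate 1 and 362 in replicate 2, against 5.97 and 5.50 TPM for the median protein-coding gene. The 4 members below 1 TPM in at least 1 replicate were Cox6a2, Cox7b2, Cox8b and Cox8c, all of complex IV.

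The complexes differed in level. By median, complex V was highest at 559 TPM in replicate 1 and 619 in replicate 2, followed by complex III at 412 and 449, complex IV at 381 and 422, complex I at 288 and 311 and complex II at 261 and 259. The medians of complexes III and IV were closer to each other than the replicates of either. Over the 12 general forms of complex IV alone the medians were 708 and 832 TPM, which is above complex V. So the place of complex IV in this order rests on its 8 restricted forms, whose medians were 4.67 and 3.40 TPM. Complexes I and II are also close, and complex II has only 4 members. The bars in the plot of levels by complex show these medians.

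**Figure D1:**
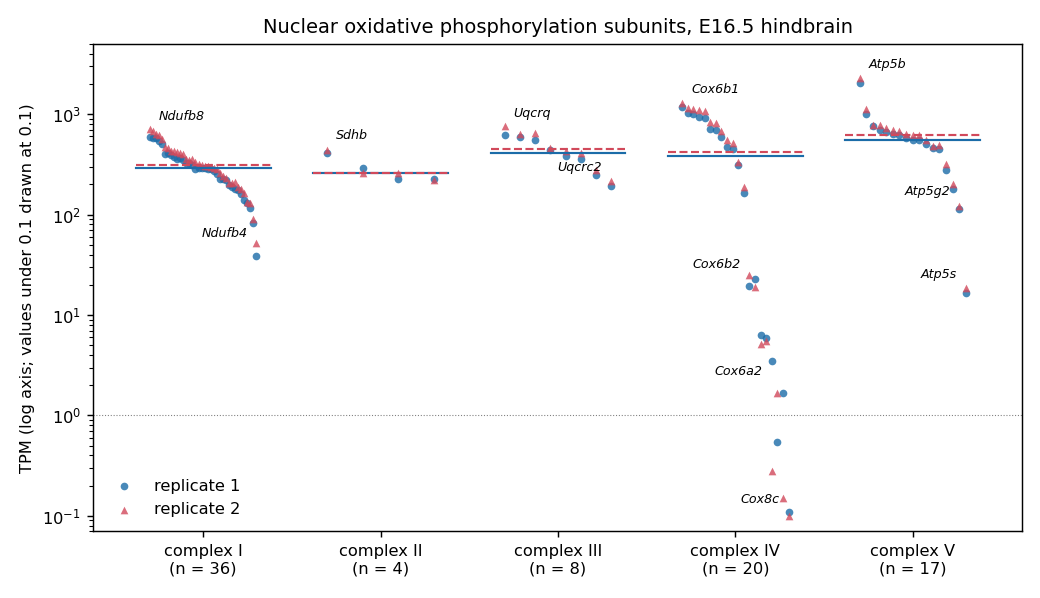
TPM of each of the 85 members in each replicate (log axis, circles replicate 1, triangles replicate 2), grouped by complex and ordered by mean level; horizontal lines are the medians of each replicate and the dotted line is 1 TPM. Complex V has the highest median, 559 and 619 TPM, and complex IV splits into 12 members above 100 TPM and 8 at or below 24.9 TPM.

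Complex I, the NADH dehydrogenase, was represented by all of its 36 members, from 38.5 to 595 TPM in replicate 1 and from 52.0 to 707 in replicate 2. The highest were accessory subunits. Ndufb8 (ENSMUSG00000025204.6, GRCm38 chromosome 19, 44548572 to 44555440) had 595 and 707 TPM, Ndufc1 578 and 676, Ndufab1, the mitochondrial acyl carrier protein, 583 and 636, and Ndufa1 536 and 620. The 7 nuclear core subunits, which form the arm that takes electrons from NADH to ubiquinone, were lower, with medians of 223 and 232 TPM against 291 and 332 for the 29 accessory subunits. Among them, Ndufv2 had 327 and 348 TPM, and Ndufs7 had 293 and 303. Ndufv1, the flavin-binding subunit, had 223 and 232 TPM. Ndufs8 had 199 and 207 TPM, Ndufs3 had 186 and 205, and Ndufs1, the largest of them, had 131 and 135.

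The lowest complex I members were Ndufb4 at 38.5 and 52.0 TPM, Ndufa11 at 82.3 and 89.6 and Ndufs4 at 115 and 131. Ndufb4 stood apart from the rest in both replicates. Its low value goes with a pseudogene copy, described further on. Ndufa11 had 5290 and 5907 expected counts, within the range of its complex, spread over an effective length of 2562 bases in replicate 1. TPM is corrected for that annotated length, and the part of the length in the low value was not tested. In GENCODE M21 its transcript has 545 bases, against 2661 in the authors' annotation. Its TPM at the shorter length was not computed.

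Complex II, succinate dehydrogenase, is the one complex with no mitochondrially encoded subunit, and its 4 genes lay close together. Sdhb, the iron-sulfur subunit (ENSMUSG00000009863.10, chromosome 4, 140961203 to 140979193), had 411 TPM in replicate 1 and 444 in replicate 2. The membrane anchors Sdhc and Sdhd had 294 and 261 TPM and 228 and 257 TPM. Sdha, the flavoprotein, had 225 and 221 TPM. The order was the same in both replicates, but neighbours below Sdhb came close to each other, Sdhd and Sdha in replicate 1 and Sdhc and Sdhd in replicate 2.

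Complex III, the cytochrome bc1 complex, ran from 194 to 625 TPM in replicate 1. Its small subunits were at the top. Uqcrq had 625 and 764 TPM, Uqcr11 591 and 635 and Uqcr10 556 and 648. Uqcrb had 387 and 435 TPM and Uqcrh, the hinge protein, 359 and 412. Of the core proteins, Uqcrc1 had 437 and 463 TPM and Uqcrc2 194 and 215, and Uqcrfs1, the Rieske iron-sulfur protein, had 249 and 276. Uqcrc1 was thus over 2-fold above its partner Uqcrc2 in each library.

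Complex V held the most abundant member of all. Atp5b, the catalytic beta subunit (ENSMUSG00000025393.8, chromosome 10, 128083273 to 128090391), had 2047 TPM in replicate 1 and 2279 in replicate 2, at rank 26 among the 21474 protein-coding genes by mean. Of the other genes of the F1 head, Atp5a1, the alpha subunit, had 761 and 788 TPM, Atp5c1, the gamma subunit, 499 and 549.6, Atp5e 557 and 619, and Atp5d 465 and 486. In the assembled enzyme alpha and beta are each present in several copies for each gamma, delta and epsilon. Over all transcripts of each gene, TPM stood at 4.12 ± 0.0303 (SD, n = 2) beta per gamma and 1.48 ± 0.0645 alpha per gamma. The ratios were 0.908 ± 0.0342 for Atp5d and 1.12 ± 0.00655 for Atp5e. Over coding transcripts alone Atp5b had 1583 and 1653 TPM and Atp5a1 739 and 774.5, while Atp5c1 kept its full level. Beta per gamma is therefore lower on that basis. Beta and alpha, which are present in equal number in the protein, thus differed in TPM in both libraries.

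The 4 stalk genes of complex V ran from 452 to 701 TPM in replicate 1 and from 489 to 779 in replicate 2, led by Atp5h. Over coding transcripts alone the range in replicate 1 was wider, from 159 TPM for Atp5f1 to 658 for Atp5h. The 4 membrane genes ran from 182 TPM for Atp5l to 579 for Atp5mpl in replicate 1, but with the counts of its pseudogene copies added Atp5l would be the highest of them at 755 TPM. Atp5s was the lowest of the complex at 16.4 and 18.6 TPM. It was grouped here by its symbol only and was the one member of complex V under 100 TPM.

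The c-ring of complex V is built from 1 mature protein encoded by 3 genes, which differ in the import sequence. Atp5g3 had 1007 and 1120.2 TPM, Atp5g1 had 659.6 and 723, and Atp5g2 had 114 and 122. Their shares of the summed level were 56.6%, 37.0% and 6.38% in replicate 1 and 57.0%, 36.8% and 6.19% in replicate 2. Atp5g3 was 1.54-fold above Atp5g1 (log2 ratio 0.62 ± 0.015, SD, n = 2) and 9.03-fold above Atp5g2 (3.17 ± 0.039). Atp5g1 was 5.87-fold above Atp5g2 (2.55 ± 0.024), and the authors' intervals were apart in both libraries. The last 90 coding bases of the 3 messages, read from GENCODE M21 transcripts, are shown because they bear on how far reads can be told apart. Capitals mark the 24 positions at which the 3 genes are not all alike.
Atp5g1: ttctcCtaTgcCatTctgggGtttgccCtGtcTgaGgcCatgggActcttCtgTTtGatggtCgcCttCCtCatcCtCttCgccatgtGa
Atp5g2: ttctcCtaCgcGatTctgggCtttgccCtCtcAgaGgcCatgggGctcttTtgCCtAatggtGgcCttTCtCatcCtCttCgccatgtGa
Atp5g3: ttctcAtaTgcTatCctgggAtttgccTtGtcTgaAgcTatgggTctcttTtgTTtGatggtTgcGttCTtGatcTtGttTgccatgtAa
Of these positions 19 are the last base of a codon. Over the last 228 coding bases Atp5g1 and Atp5g2 differed at 34, Atp5g1 and Atp5g3 at 46 and Atp5g2 and Atp5g3 at 49. The longest run of aligned identical bases in that stretch was 21. The 3 genes are thus distinct in sequence, whereas Atp5g1 and Atp5g2 each have a near-identical pseudogene with counts of its own, whose source cannot be told apart. With the counts of these copies added, the log2 ratio of Atp5g3 became 0.27 over Atp5g1 and 2.02 over Atp5g2, and that of Atp5g1 over Atp5g2 became 1.75, with the order unchanged.

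Complex IV, cytochrome c oxidase, had the sharpest division. Its general forms were led by Cox6b1 (ENSMUSG00000036751.6, chromosome 7, 30616861 to 30626151) at 1169 and 1289.6 TPM, Cox4i1 at 1029 and 1155, Cox6a1 at 1001 and 1124, and Ndufa4 at 948 and 1113. Cox8a had 908 and 1074 TPM, Cox7a2 had 450.0 and 514, and Cox7b had 312 and 331. All 12 general forms, Cox7a2l at 165 and 189 TPM included, exceeded 100 TPM in both replicates. No restricted form exceeded 24.9 TPM.

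In each of 8 pairs of a general and a restricted form the general form was higher. These pairs, Cox7a2 with Cox7a2l and the 3 c-ring pairs, 12 in all, had deposited intervals that were apart in both replicates. The share of other gene pairs apart by the same rule was not computed, so this count only describes these pairs. Cox4i1 was 191-fold above Cox4i2, the hypoxia-linked form of lung and pericytes (log2 ratio 7.58 ± 0.17, SD, n = 2), which had 5.84 and 5.57 TPM. Ndufa4 was 49.3-fold above Ndufa4l2, a hypoxia-induced and pericyte-associated paralog (5.62 ± 0.36), which had 22.9 and 18.9 TPM. Of the 8 listed pericyte genes, Vtn had 149 and 127 TPM, Rgs5 15.1 and 14.8, and Pdgfrb 17.3 and 11.8. Higd1b went the other way, with 12.5 and 16.3 TPM. After TMM scaling, 2 of the 8 were higher in replicate 2. The part of pericytes in the values of Cox4i2 and Ndufa4l2 was not tested. In bulk tissue, fewer cells of a type and less RNA per cell cannot be told apart.

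Cox6b1 was 55.8-fold above Cox6b2, known as the testis form (5.80 ± 0.15), at 19.4 and 24.9 TPM. That value came from 196 and 263 counts. Of the 4 listed male germ cell markers, Ddx4 had 1.18 and 0.74 TPM and Prm1 0.43 and 0.21. Dazl had 0.32 and 0.23 TPM, and Tnp1 had 0 in both replicates. The part of germ cells in the Cox6b2 value was not tested. Cox7a2 was 84.5-fold above Cox7a1, a muscle and heart form (6.40 ± 0.35), at 6.31 and 5.13 TPM. Cox7a2 was 2.72-fold above Cox7a2l, the supercomplex-associated paralog (1.44 ± 0.005). Cox7b was 577-fold above Cox7b2 in replicate 1 and 198-fold in replicate 2.

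The lowest forms rested on few counts. Cox8b, a muscle form, had 11 counts (1.67 TPM) in replicate 1 and 1 count (0.15 TPM) in replicate 2. Cox8a was 544-fold above it in replicate 1 and 7161-fold in replicate 2, with a 95% exact binomial (Clopper-Pearson) interval of 304 to 1090 and of 1285 to 282862. Cox8c, the testis form, had 1 count in replicate 1, where Cox8a stood 8256-fold higher (interval 1481 to 326133). In replicate 2 Cox8c had 0 counts. At a chosen floor of 3 counts it would have 0.309 TPM, with Cox8a 3472-fold higher. That floor is a setting and not an interval like those above. The intervals cover counting error only, and amplified reads are not independent molecules.

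**Figure D2:**
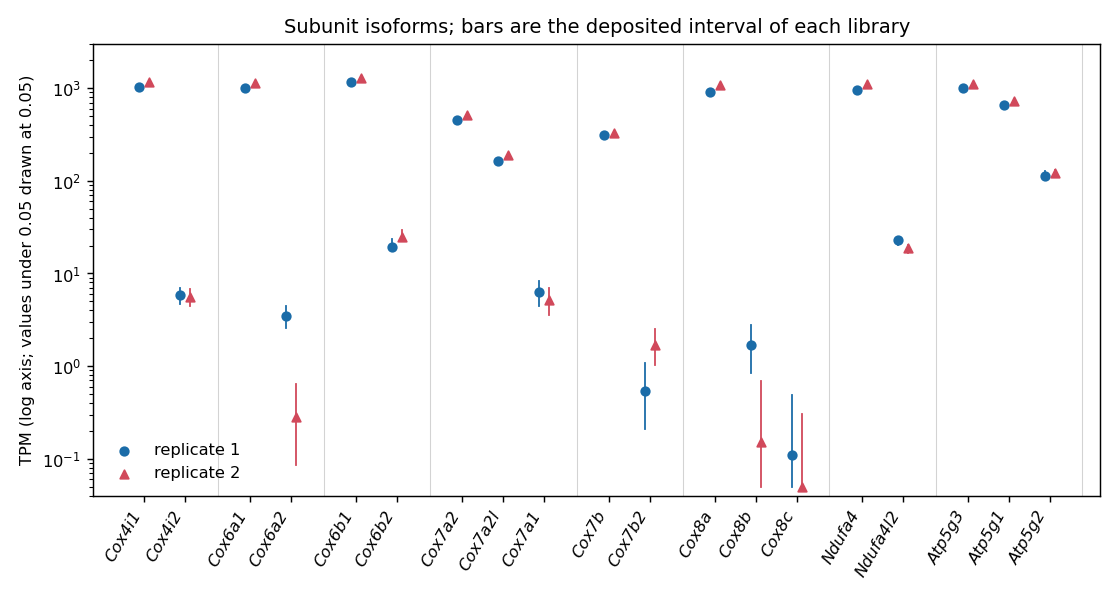
TPM of subunit isoforms in each replicate (log axis), with the general form first in each family and vertical bars for the deposited interval of each library; Cox8c in replicate 2 is at 0. General forms of complex IV lie between 165 and 1289.6 TPM and restricted forms at or below 24.9 TPM, while the 3 c-ring genes all exceed 100 TPM.

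Between the 2 pools, 2 of 83 members with a mean of 1 TPM or more differed by over 2-fold after TMM scaling of the counts, and both were restricted forms. Over 2-fold higher in replicate 1 was Cox6a2 alone, the muscle form of Cox6a (ENSMUSG00000030785.7, chromosome 7, 128205435 to 128206387). That is 1.2% of members, near the 1.11% of protein-coding genes, so the members do not stand apart in this. Cox6a2 had 49 counts against 4, or 3.49 against 0.28 TPM, and its counts relative to library size were 12.2-fold higher (interval 4.47 to 46.5). Cox8b, just under a mean of 1 TPM, was 10.9-fold higher in replicate 1 (interval 1.59 to 471). The listed skeletal muscle genes, chosen with earlier results of these data known, were also higher in replicate 1. Ckm, a creatine kinase of muscle, stood at 29.3 and 0.42 TPM, Actc1 had 59.9 and 1.05, and Acta1 had 139 and 9.94. Cox7a1 had 42 and 35 counts, which put replicate 1 at 1.19 times replicate 2 (interval 0.744 to 1.93). The part of muscle tissue in the values of Cox6a2 and Cox8b was not tested. Without replicate 1, Cox6a1 stood 4016-fold above Cox6a2, against 287-fold without replicate 2.

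Over 2-fold higher in replicate 2 was Cox7b2 alone, which is 1.2% of members, where 0.397% of protein-coding genes were. It had 6 counts in replicate 1 and 19 in replicate 2, or 0.54 and 1.67 TPM, so replicate 1 stood at 0.314 times replicate 2 (interval 0.103 to 0.819). At a mean of 5 TPM or more no member was over 2-fold apart.

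The other members shifted little and mostly the same way. Of 83 members, 78 were higher in replicate 2 after TMM scaling, where 46.9% of protein-coding genes were. The median log2 ratio of replicate 2 over replicate 1 was 0.20, against -0.015 over all protein-coding genes. It was 0.24 in complex IV, 0.21 in complex III, 0.20 in complex I, 0.18 in complex V and 0.088 in complex II. Within complex I it was 0.22 over accessory and 0.12 over core subunits. The exceptions were Sdhc at -0.013 and the restricted forms Cox4i2 at -0.017, Ndufa4l2 at -0.23, Cox7a1 at -0.25 and Cox6a2 at -3.45. Sdha, at 0.015, was also near 0.

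High level and short transcript length moved with this shift. Of the 444 other protein-coding genes averaging at least 100 TPM with an effective length under 1000 bases, 384 were higher in replicate 2, with a median of 0.12. Members under 1000 bases had a median of 0.20 (65 genes) and longer members 0.16 (18 genes). The part of length and level in the shift was not tested. Scaled by spike-in totals, which adds 0.45 to all log2 ratios and puts the median protein-coding gene at 0.43, the directions of Sdhc, Cox4i2, Ndufa4l2 and Cox7a1 turned with this common shift.

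**Figure D3:**
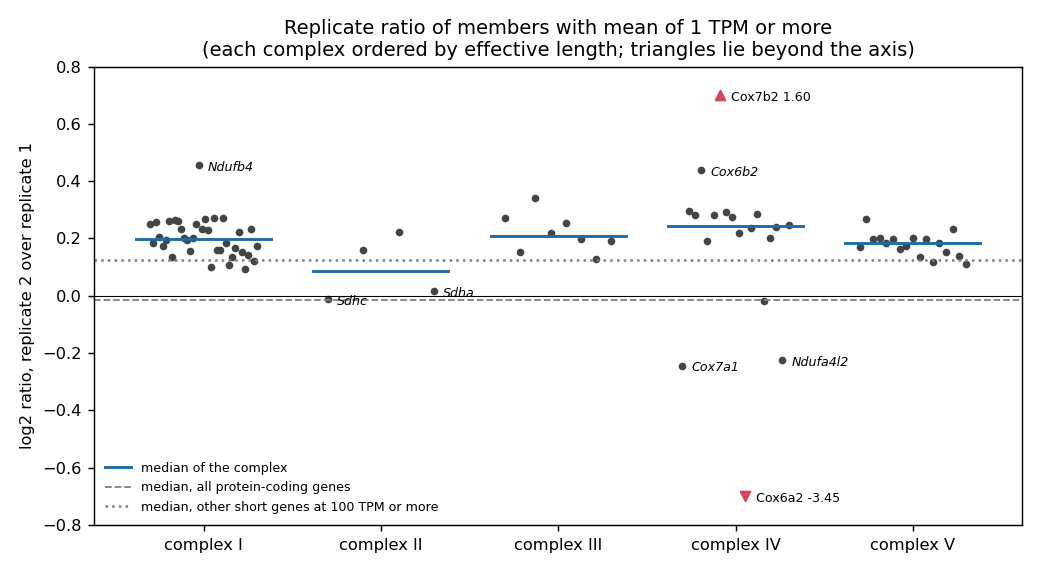
Log2 ratio of replicate 2 over replicate 1 (TMM scaling, prior count 0.5) for the 83 members with a mean of 1 TPM or more, each complex ordered by effective length, with blue lines at complex medians, a dashed line at the median of all protein-coding genes (-0.015) and a dotted line at that of other short genes at 100 TPM or more (0.12). Most members lie above the dotted line, and triangles mark Cox6a2 and Cox7b2, which lie beyond the axis.

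Several members share their sequence with processed pseudogenes, copies of a message inserted elsewhere in the genome, and for 3 members, Ndufb4, Atp5l and Atp5g2, the copies were given over 50% of the summed counts. The search for copies was added after the values had been seen. In the files, 24 pseudogenes of 16 members hold at least 50% of their 31-base words in a member, and 17 of them had a mean of 1 TPM or more. Over their aligned bases, all within the coding part, 4 of the 17 were identical to the member and another 2 differed at 1 base.

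The copies with 0 or 1 difference were the highest. Ndufb4c (ENSMUSG00000083380, chromosome 15, 73809507 to 73809896), identical to Ndufb4 over 390 bases, had 281 and 336 TPM, from 2051 and 2511 counts, against 543 and 737 counts for Ndufb4. It thus held 79.1% and 77.3% of the summed counts. Gm10221 (chromosome 5, 24581554 to 24581862), identical to Atp5l over 309 bases, had 730.1 and 832 TPM and, with lesser copies of Atp5l, 75.9% and 76.4% of the counts. Gm10175, a copy of Atp5g2, took 55.0% and 55.5%, and Gm10039, a copy of Atp5g1 with 1 difference in 411 bases, took 18.9% and 24.5%. With the copies' counts added at the member's own TPM per count, Ndufb4 would stand at 184 and 229 TPM, Atp5l at 755 and 855 and Atp5g2 at 253 and 273. Reads within a stretch that a gene and its copy share cannot be told apart. The values of Ndufb4, Atp5l, Atp5g2, Atp5g1, Cox7c and Ndufab1 are therefore uncertain in that direction.

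Cox7c shows how complete such an overlap can be on the side of the copy. In the leading coding transcript of Cox7c, 196 of 441 words of 100 bases (44.4%) also occur in another gene. Of the 85 members, 56 share no such word with another gene. The whole of Gm12338 (ENSMUSG00000081485, chromosome 11, 75599763 to 75599954, minus strand) is the coding part of Cox7c without a difference in 192 bases, so 1 sequence stands for both.
Cox7c and Gm12338: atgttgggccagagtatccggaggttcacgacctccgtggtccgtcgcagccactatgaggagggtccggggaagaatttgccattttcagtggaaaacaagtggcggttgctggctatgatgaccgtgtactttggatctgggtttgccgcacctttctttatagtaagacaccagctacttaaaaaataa
Cox7c had 469 and 553 TPM and Gm12338 538 and 689 TPM, from 4596 and 5584 counts and from 1255 and 1649 counts. The copy exceeded its source in TPM while having fewer counts, since its annotated length is only the coding part.

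Copies that differ from the member at 2 or more bases behaved otherwise. Their mean levels were 1.37 to 19.8 TPM, and all 11 were over 2-fold higher in replicate 2, by 2.36-fold to 9.44-fold, where 49.6% of all 639 processed pseudogenes averaging at least 1 TPM were. Of the 6 copies with 0 or 1 difference, none was. The cut at 2 differences is part of the search added after the values were seen. Reads from an identical copy cannot be told from the member's, so this contrast was partly fixed beforehand. Cox6c2, a copy of Cox6c, had 4.07 TPM in replicate 1 and 35.6 in replicate 2, or 13.5 and 121 counts, while Cox6c itself had 718 and 841 TPM. The first 90 coding bases of both are shown with the 6 differences of this stretch in capitals.
Cox6c: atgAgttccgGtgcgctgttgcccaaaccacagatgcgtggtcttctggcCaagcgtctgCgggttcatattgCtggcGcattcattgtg
Cox6c2: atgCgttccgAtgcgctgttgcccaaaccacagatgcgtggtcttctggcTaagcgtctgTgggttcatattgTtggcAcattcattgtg
The copies' counts were small beside the members', as with Gm12251, a copy of Ndufs3 with 11 differences, at 0.205% of the summed counts in replicate 1 and 1.75% in replicate 2. Adding them changed no such member's TPM by a larger part than that of Atp5h, from 779 to 806 in replicate 2. The cause of the difference between replicates was not tested.

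**Figure D4:**
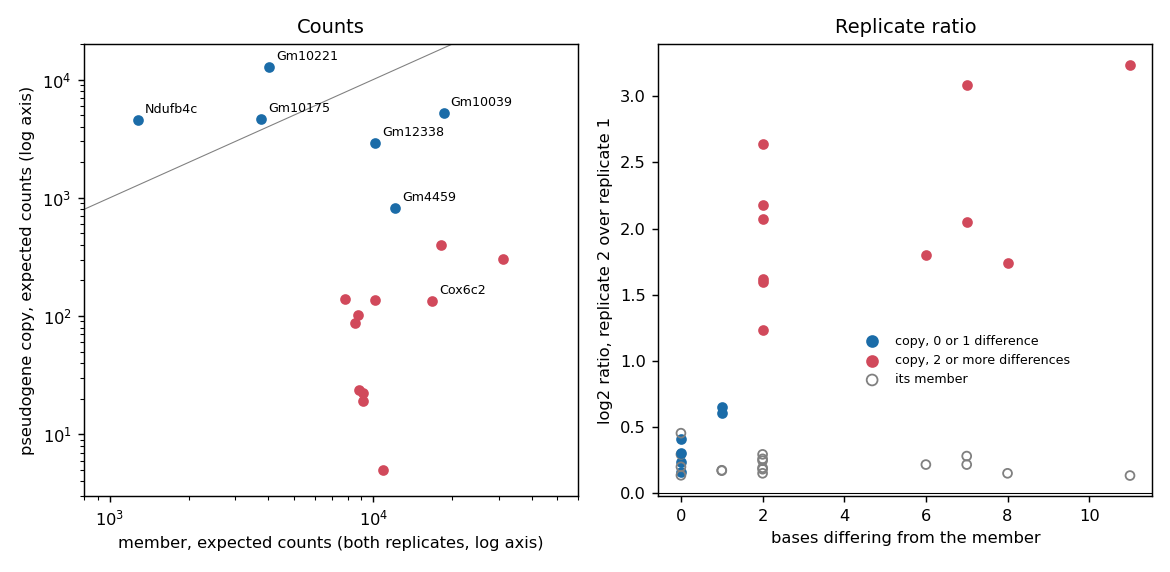
Left, expected counts of 17 pseudogene copies against those of their members, summed over both replicates (log axes, line of equality in grey); right, log2 ratio of replicate 2 over replicate 1 of each copy and its member against the number of differing bases. The 6 copies with 0 or 1 difference had ratios of 0.16 to 0.66, and the 11 with more had 1.24 to 3.24.

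For some members most of the level came from transcripts that are not annotated as coding. Of 79 members at 10 TPM or more, 7 had under 50% of their TPM from protein-coding transcripts, which is 8.86%, against 8.34% of all protein-coding genes at that level, so the members do not stand apart in this. The lowest shares were those of Ndufa5 at 13.1%, Ndufa10 at 16.2%, Atp5j at 33.0%, Atp5f1 at 33.8% and Ndufb4 at 37.5%. In Ndufa5, a transcript of 453 bases of the type processed transcript had 285 and 306 TPM, against 25.4 and 25.7 for the leading coding one. In Atp5f1, the stalk b subunit, a transcript of the type nonsense-mediated decay had 287 and 321 TPM and the coding one 159 and 159. In Atp5j a transcript with a retained intron had 382 and 424 TPM and the leading coding one 175 and 177. How reads were split among overlapping transcripts rests on the authors' model.

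The rest of the pathway was set beside the nuclear subunits from fixed lists. All 13 mitochondrially encoded subunits reached 1 TPM, from mt-Nd4l at 64.0 and 62.2 TPM to mt-Atp6 at 7711 and 9551. Their medians exceeded those of the nuclear members in each complex that has them, by 1.47-fold and 1.55-fold in complex I and 12.2-fold and 13.3-fold in complex V. In complex IV, where the nuclear median includes the restricted forms, the ratio was 2.78 and 3.48. In complex III, with mt-Cytb alone, it was 9.73 and 8.69. The summed level was 29097 and 33973 TPM for the 13 mitochondrial genes, below the sum of the 85 nuclear ones in both replicates. The electron carriers Cyc1, the cytochrome c1 of complex III, and Cycs, the somatic cytochrome c, had 416 and 446 TPM and 67.0 and 76.7 TPM, while the testis form Cyct had 0.07 and 0.14.

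Assembly factors and regulators were lower. Of 45 assembly factors, which help build the complexes but are not part of them, 44 reached 1 TPM in both replicates, with medians of 37.3 and 40.8 TPM. The highest was the complex III factor Uqcc2 at 288 and 331 TPM and the lowest the complex IV factor Pet117 at 0.56 and 1.39. All 12 regulators were detected, with medians of 18.2 and 13.6 TPM. Tfam, which packages mitochondrial DNA, and Polrmt, the mitochondrial RNA polymerase, were highest at 34.5 and 41.7 TPM and 43.0 and 31.5 TPM. The coactivator Ppargc1b was lowest at 5.48 and 5.34 TPM. Of the assembly factors 3 of 45 reached 100 TPM in both replicates, near the 7.76% of all protein-coding genes, and of the regulators 0 of 12. Higher in replicate 2 were 36 of 44 assembly factors compared, 4 of 12 regulators and 13 of 13 mitochondrially encoded subunits (median log2 ratio 0.24), beside 46.9% of protein-coding genes.

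**Figure D5:**
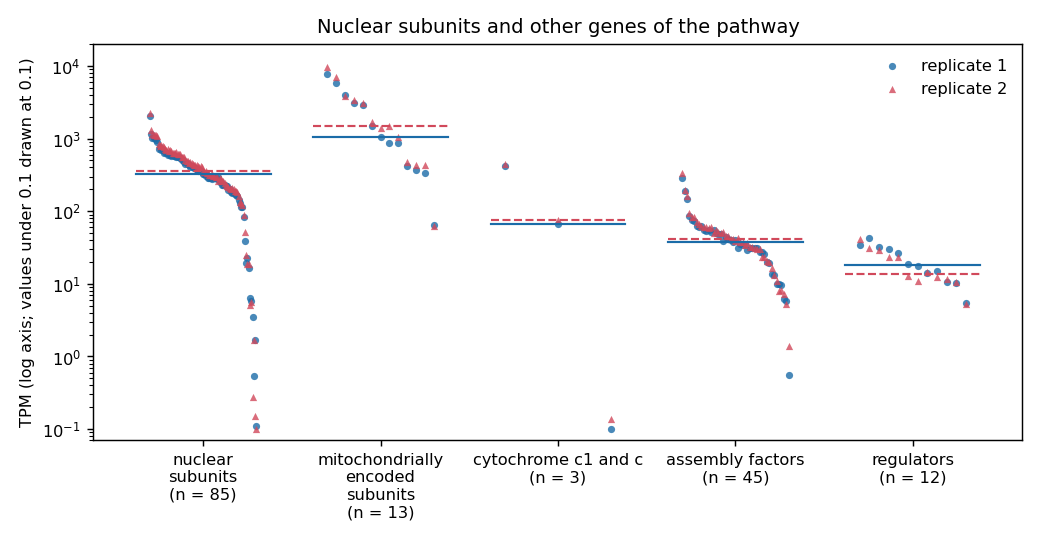
TPM in each replicate (log axis) of the 85 nuclear subunits, 13 mitochondrially encoded subunits, cytochrome c1 and c, 45 assembly factors and 12 regulators, with lines at the medians of each replicate. Medians fall from the mitochondrially encoded subunits (1059.5 and 1470.4 TPM) over the nuclear subunits (328 and 362) to assembly factors (37.3 and 40.8) and regulators (18.2 and 13.6).

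Promoters of the members were searched for motifs of factors known to regulate respiratory genes. RefSeq promoter sequences on GRCm38.p6, from 250 bases before the start site to 50 bases after it, were matched to 69 of 85 members and to 16601 protein-coding genes. Of these 69 members, 61 lay within 100 bases of the start of their entry, so some windows may lie away from the annotated start. Among those not used here were the promoters of Atp5a1, Atp5mpl, Cox4i1, Cox4i2, Cox6a2, Cox6c, Cox8c, Ndufa2, Ndufa4l2, Ndufb9, Ndufs1, Sdhc, Uqcrb, Uqcrc2 and Uqcrq. The letters GCGCATGC of nuclear respiratory factor 1 (NRF1) stood on either strand in 10 of 69 members (14.5%), against 3.78% of all protein-coding genes and 6.51% of the 1337 others at 100 TPM or more. The letters CAAGGTCA of the estrogen-related receptors stood in 4 members (5.80%), against 1.13% and 1.12%. The letters AANATGGC of YY1 stood in 15 members (21.7%), against 6.72% and 10.5%. In 10 of those 15 they lay 17 to 45 bases after the start site, and before the start site alone they stood in 5.80% of members, near the 5.09% of the others at 100 TPM or more, against 3.65% of all genes.

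The other motifs stood in members at or below the share in genes of like level, but for the TATA box, which differed by less than 1 percentage point. The letters CCGGAAG of the ETS factor GABPA stood in 15 members (21.7%), against 12.4% of all genes and 23.6% of the others at 100 TPM or more. The letters GGGCGGG of SP and KLF factors stood in 34.8% of members, against 36.0% and 51.5%, and the TATA box letters TATAAA in 10.1%, against 12.9% and 9.50%. The median GC content of the windows was 57.3% in members, 57.0% in all and 61.3% in the others at 100 TPM or more. A match of letters is not a site in use. Stretches of 48 bases before the start site that overlap no annotated exon are shown for 4 members as examples, 5′ to 3′ on the gene's strand, with the NRF1 letters in capitals in the first 2 and the estrogen-related receptor letters in the last 2.
Ndufa6, minus strand of chr15:82354347-82354394: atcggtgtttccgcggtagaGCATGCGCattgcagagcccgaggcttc
Atp5l, minus strand of chr9:44920945-44920992: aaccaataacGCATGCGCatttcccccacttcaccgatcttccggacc
Atp5g3, minus strand of chr2:73911351-73911398: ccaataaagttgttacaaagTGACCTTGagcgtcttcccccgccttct
Ndufs5, minus strand of chr4:123718387-123718434: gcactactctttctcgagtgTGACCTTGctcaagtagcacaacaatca
In these examples the motif stands on the strand opposite to the letters given above. The 4 genes had mean levels of 309, 192, 1064 and 404 TPM.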

How the data were processed

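RNA from 2 pools of E16.5 hindbrain was analysed, with 42467811 and 42017008 deposited expected counts in all. Per the labels, the assembly was mm10, and per the deposited notes the annotation was GENCODE M4. Sources used here name no aligner or quantification tool. Per the file headers, the authors gave each gene an expected count, which need not be whole, and TPM and FPKM corrected for effective length. Posterior mean TPM was deposited too, and the deposited interval bounds on TPM were treated as scores, their confidence level not being given in the header. TPM lay above its own upper bound for 19 and 20 of 85 members, so the bounds were used to compare genes and, for the lower bound, as an alternative in counting detected members. The authors also gave each transcript's percent of its gene, read beside transcript TPM, from which coding shares were computed.

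Gene names, types and coordinates were those of GENCODE M21 (GRCm38), joined on identifiers without version. Expected counts were rounded and scaled with edgeR 4.0.16 by TMM under R 4.3.3, leaving out 97 spike-in features, with a prior count of 0.5 and a mean of 1 TPM or more. Size factors from DESeq2 1.42.0 were an alternative. Other steps used pandas 2.3.3, SciPy 1.17.1 and Python 3.11.15. Pseudogene copies were found by shared 31-base words and aligned with Biopython 1.88. The ratio step was tested on simulated data. No source states stranded counting, so a gene and an antisense partner cannot be told apart.

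Detection meant 1 TPM in both libraries. Members, lists, pairs and tests were chosen with earlier results of these data known. Named were the 4 highest and 3 lowest members of each complex, all of complexes II and III, the F1 head, the c-ring, the complex I core (1 gene of it is not reported here), each isoform pair, members over 2-fold apart and the 5 with the lowest coding share, with list genes at top and bottom. En2, Cidea, Higd1b, Ddx4, Dazl, Prm1, Tnp1, the heart markers, pseudogene copies and the members beside them were named after their values were seen. Lists covered the pathway, hindbrain position, neurons, muscle, heart, pericytes, brown fat, male germ cells and red blood cells.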

Additional observations from a re-analysis of the deposited data

How the results depend on the processing

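Results rest on 2 libraries of 1 group, so spread between pools is known only roughly, and p-values were not given. The count of members at 1 TPM was 81 to 83 under every alternative, including each replicate left out. At 100 TPM the count was 74, 72 over coding transcripts, 68 by FPKM and 75 with copies' counts added, an alternative chosen after seeing the data. In FPKM the complex medians were 180, 156, 259, 242 and 355 for complexes I to V, a change of unit that kept their order. Complex II was at 254 by posterior mean TPM, against 260.0. The median of complex IV, 402, became 218 over coding transcripts and 482 without Cox8c, the one member under 1 TPM in both replicates. Over coding transcripts it lay below complexes I and II, at 288 and 260.0, and without Cox8c above complex III. Leaving out 1 replicate put the medians between 288 and 311 for complex I, 259 and 261 for II, 412 and 449 for III, 381 and 422 for IV and 559 and 619 for V.

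The 11 isoform pairs with a ratio in both replicates (all but Cox8a over Cox8c) kept their direction in all 66 alternative values. Many of these could not have changed it. Within a library FPKM and counts per effective length only rescale TPM, and adding copies' counts leaves pairs without copies as they were. Of the 66 values, 7 moved by more than the spread between replicates, which leaving out 1 of 2 replicates cannot do. A 2-fold rule on posterior mean TPM or on coding transcripts called 11 pairs, leaving out Atp5g3 over Atp5g1. The median replicate ratio of 0.20 was 0.15 to 0.20 except under spike-in totals, which put it at 0.65. Members over 2-fold apart numbered 2, 4 with no minimum and 0 at a mean of 5 TPM. The share of member promoters with YY1 letters fell from 21.7% to 5.80% before the start site alone. No paired analysis was possible because there is only 1 group. Depth limits Cox6a2, Cox7a1, Cox7b2, Cox8b and Cox8c, with at most 49 counts in a library.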
